A study of Mus musculus with 4 samples.

Results

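The 39 genes described here act in the G2 phase and in mitosis: cyclins and kinases that start mitosis, proteins of the kinetochore and the spindle checkpoint, motors and bundlers of the spindle, and the proteins that finish division. They were chosen by name, and the FPKM (fragments scaled to transcript length and library depth) of all transcript rows of a symbol were added. The tables held 26994 gene symbols, 11716 genes had a mean of at least 1 FPKM over the 4 libraries and were tested, and all 39 members were among them. The series asked which genes differ between wild-type mouse embryonic stem cells and cells lacking the Evx1as/Evx1 promoter and first exon while they differentiate without leukemia inhibitory factor (LIF, the cytokine that keeps these cells undifferentiated). Only wild-type libraries are used here: 2 from day 4 and 2 from day 6 of LIF withdrawal. All 4 came from CJ9, an embryonic stem cell line of strain 129S4/SvJae, are titled Cas9 only, and had no untreated day 0 library beside them here, so every comparison is between day 4 and day 6 of the same treatment.

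The growth text of the labels does not match the titles in 3 of the 4 libraries. The culture time it states is 2 days in the first day 4 library and 6 in the second, and 4 days in the first day 6 library and 6 in the second. The harvest text and the time label match the titles, and the titles are used. No label says whether the replicates are separate cultures, so the p-values below rest on variation among libraries that could be technical alone.

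Entry into mitosis is driven by the kinase CDK1 bound to cyclins A and B. The kinetochore links each chromosome to spindle microtubules, the spindle checkpoint delays anaphase until every chromosome is attached, and the anaphase-promoting complex (APC/C) then marks cyclin B and securin for destruction. Most genes of this programme are transcribed in G2 under the DREAM and MMB complexes (both built on the MuvB core, the second with B-MYB), the factor FOXM1 and the CCAAT-binding factor NF-Y. MuvB contacts a short promoter element called the cell cycle genes homology region, or CHR. Embryonic stem cells cycle fast with short gap phases, and the cycle lengthens as they differentiate.

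The promoter letters that this regulation reads are shown first, because most of the member promoters that could be matched hold them. Promoter windows from RefSeq (GRCm38.p6) were matched for 33 of the 39 members and run from 250 bases before to 50 bases after the start of the transcript. In each sequence below only the 250 bases before the start are printed, in the direction of transcription. Capitals mark the NF-Y box, which reads CCAAT on the printed strand. Where the box lies on the opposite strand, the printed letters are ATTGG. Capitals also mark the CHR in its first form, which reads TTTGAA. Where this form lies on the opposite strand, the printed letters are TTCAAA. The second form of the CHR is TTTAAA, which reads the same on both strands. Ube2c has 1 box on each strand that overlap each other.

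The promoter of Ube2c (chr2:164769679-164769928, plus strand), the APC/C ubiquitin-conjugating enzyme, and that of Top2a (chr11:99024190-99024439, minus strand), the topoisomerase that untangles sister chromatids, held 6 NF-Y boxes each in this stretch, the first with 1 CHR and the second with 2.
Ube2c: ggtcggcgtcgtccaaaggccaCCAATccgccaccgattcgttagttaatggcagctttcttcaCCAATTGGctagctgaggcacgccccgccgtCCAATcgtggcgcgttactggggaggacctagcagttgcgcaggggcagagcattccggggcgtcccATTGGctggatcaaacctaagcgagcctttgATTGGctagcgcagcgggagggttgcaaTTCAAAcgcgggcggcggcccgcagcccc
Top2a: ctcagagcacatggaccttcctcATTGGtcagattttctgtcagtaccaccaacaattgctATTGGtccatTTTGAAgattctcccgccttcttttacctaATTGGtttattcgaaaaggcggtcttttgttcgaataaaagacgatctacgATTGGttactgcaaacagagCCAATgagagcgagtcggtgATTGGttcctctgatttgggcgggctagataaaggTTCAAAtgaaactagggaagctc

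The promoters of Cdc20 (chr4:118437344-118437593, minus strand), the APC/C activator, and Bub3 (chr7:131560120-131560369, plus strand), a checkpoint protein, held 2 NF-Y boxes and 1 TTTGAA form each. The promoters printed with both elements were taken in order of mean FPKM, not by the change between the days.
Cdc20: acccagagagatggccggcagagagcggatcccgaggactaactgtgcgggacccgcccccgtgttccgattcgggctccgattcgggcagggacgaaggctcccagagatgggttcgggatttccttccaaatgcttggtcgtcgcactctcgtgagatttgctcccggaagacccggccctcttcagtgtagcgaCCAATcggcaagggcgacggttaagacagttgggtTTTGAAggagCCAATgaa
Bub3: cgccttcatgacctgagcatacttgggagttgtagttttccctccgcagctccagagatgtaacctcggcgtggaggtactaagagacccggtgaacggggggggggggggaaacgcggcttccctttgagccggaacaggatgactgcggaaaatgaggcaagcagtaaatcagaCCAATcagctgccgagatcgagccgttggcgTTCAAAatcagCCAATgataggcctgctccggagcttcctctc

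The promoters of Plk1 (chr7:122159185-122159434, plus strand), the polo kinase of mitosis, and Ccnb1 (chr13:100786487-100786736, minus strand), cyclin B1, carried the TTTAAA form, 2 matches in Plk1 and 1 in Ccnb1. Plk1 had 1 NF-Y box and Ccnb1 had 2.
Plk1: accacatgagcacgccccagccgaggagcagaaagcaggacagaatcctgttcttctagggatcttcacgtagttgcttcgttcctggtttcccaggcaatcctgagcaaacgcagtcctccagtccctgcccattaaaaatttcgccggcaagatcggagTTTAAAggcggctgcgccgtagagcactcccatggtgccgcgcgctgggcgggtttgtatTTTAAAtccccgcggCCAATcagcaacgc
Ccnb1: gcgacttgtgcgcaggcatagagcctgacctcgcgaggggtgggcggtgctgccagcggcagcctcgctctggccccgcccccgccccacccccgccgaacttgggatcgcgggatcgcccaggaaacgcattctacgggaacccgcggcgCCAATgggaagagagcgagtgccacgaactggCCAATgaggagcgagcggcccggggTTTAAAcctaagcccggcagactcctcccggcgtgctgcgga

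The promoter of Nuf2 (chr1:169531465-169531714, minus strand), a subunit of the NDC80 complex that grips microtubules, had no match to either element, nor did that of Nusap1. No match says only that these letters are absent from the window.
Nuf2: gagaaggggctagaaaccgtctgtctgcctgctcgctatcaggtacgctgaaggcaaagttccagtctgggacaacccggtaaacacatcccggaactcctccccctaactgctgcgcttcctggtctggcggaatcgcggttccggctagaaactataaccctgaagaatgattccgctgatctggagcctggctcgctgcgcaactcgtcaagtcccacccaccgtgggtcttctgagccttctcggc

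Counted over both strands of the whole 300 base window, CCAAT was present in 27 of the 33 member promoters (81.8%) and in 38.9% of the promoters of 9028 tested genes. At least 2 boxes were present in 19 members (57.6%) against 15.6% of all. The TTTGAA form was present in 26 members (78.8%) against 11.3% of all, and TTTAAA in 10 (30.3%) against 8.31%. Either form was found in 29 members (87.9%, against 18.1%), and a CCAAT together with either form in 25 (75.8%, against 7.60%). Among 23 promoters of genes for DNA replication and the G1/S step, 65.2% had CCAAT but 26.1% had either CHR form. The E2F motif, searched as TTTGGCG or TTTCCCG on both strands, showed the opposite order: 2 members (6.06%), 43.5% of the G1/S promoters and 8.93% of all. No searched motif contains another, but a match can overlap a neighbour. These shares are descriptions, and a match is not a bound site.

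The 66 CCAAT matches in the member promoters had a median position 65 bases before the start (quartiles 103 and 23.5 bases before), and neighbouring matches within a promoter were a median of 33 bases apart (quartiles 28.5 and 42.5, 39 pairs). The 32 TTTGAA matches had a median position 1.5 bases before the start. For 31 of the 33 members the window began within 100 bases of the start of the transcript row in the deposited tables. The exceptions were Kif2c and Ckap5, and in the 31 the share with either CHR form was 87.1%.

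**Figure D1:**
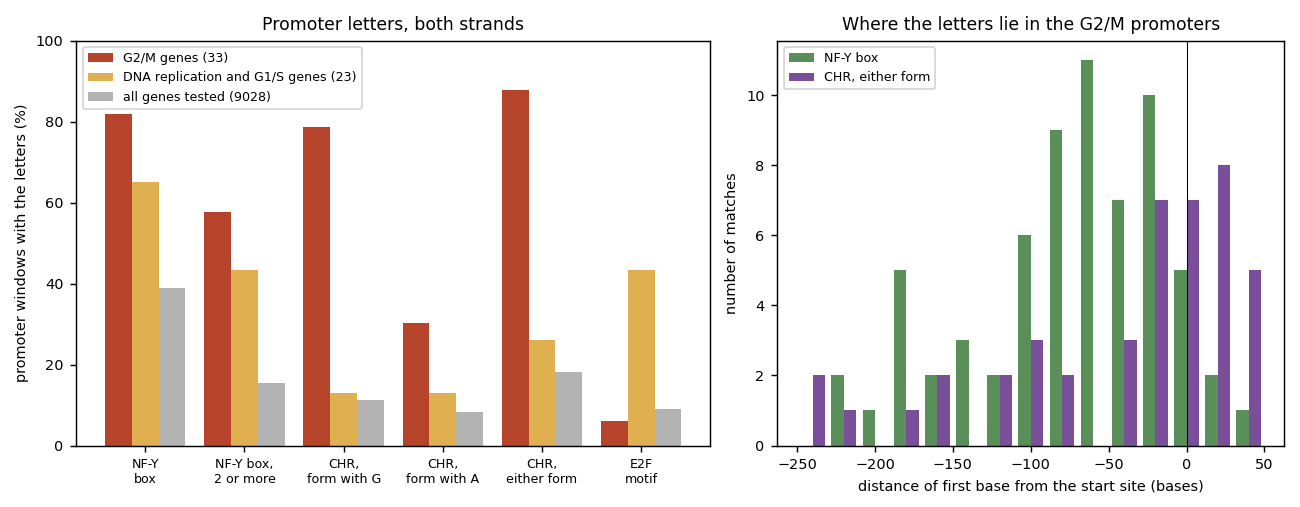
Left, the share of promoter windows (%) holding each set of letters on either strand in G2/M genes (33), G1/S genes (23) and all tested genes (9028). Right, the number of matches in the member promoters by distance of the first base from the start site (bases). CHR in either form is in 87.9% of member windows against 18.1% of all, the E2F motif in 6.06% against 8.93%.

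Day 4 replicate 2 stood apart from the other 3 libraries before any comparison of days. It had 9449 genes at 1 FPKM or more, against 11206 to 11840 in the others. Its 10 most abundant transcript rows held 19.8% of its FPKM, against 10.4 to 11.8%. Of 6146 genes at 5 FPKM or more in each of the other 3 libraries, 202 (3.29%) were listed at 0 in it. B2m, which nearly every cell expresses, was one of them, at 49.3, 0, 142 and 145 FPKM in day 4 replicate 1, day 4 replicate 2, day 6 replicate 1 and day 6 replicate 2. An exact 0 in these tables therefore need not mean absence, and a gene at 0 is described only as listed at 0. In day 4 replicate 2, 4 transcript rows carried a failed status. Interval widths in the tables correspond to about 3.72, 3.61, 6.49 and 5.76 M fragments in the same order. The median ratio of deposited coverage to FPKM, over rows above 1 FPKM, was 0.698, 0.929, 1.82 and 1.59. The log2(FPKM + 1) values correlated at r = 0.67 between the day 4 libraries and at 0.98 between the day 6 libraries (11716 genes, which share each library's depth and composition). The counts over the members, and the differences of selected members, are therefore also given against each day 4 library alone.

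The labelled cell type was present and the culture was mixed. The 10 pluripotency markers summed to 977 and 982 FPKM at day 4 and to 325 and 330 FPKM at day 6. Single markers differed between the day 4 libraries: Nanog was at 83.8 and 13.7 FPKM, Tdgf1 at 140 and 3.47, and Utf1 at 73.1 and 392. Pou5f1 was close, at 368 and 376 FPKM. Zfp42 and Esrrb were higher at day 6. All 10 were at 1 FPKM or more except 1 in day 4 replicate 2. The 7 markers of primitive red blood cells summed to 0 and 0.144 FPKM at day 4, with no marker at 1 FPKM, and to 186 and 730 FPKM at day 6, with 5 and 7 markers at that level. The 10 fibroblast markers, 8 of them tested, summed to 20.4 and 12.4 FPKM at day 4, where S100a4, Lum, Dcn or Postn were at 0 in 1 or both libraries, and to 171 and 316 FPKM at day 6. The 8 neuron markers summed to 143, 58.3, 70.3 and 36.8 FPKM, with Dcx at 0 in both day 4 libraries and Snap25 at 0 in all 4 libraries. The 8 mesoderm markers summed to 320, 590, 218 and 397 FPKM, with Tbx6 at 0 in 1 of them, and the 8 endoderm markers to 15.5, 17.9, 59.5 and 90.3 FPKM, with Ttr, Afp and Apoa1 at 0 in some. The part of these shifts in the G2/M values was not tested. In such bulk RNA, fewer dividing cells and less of these RNAs per cell cannot be told apart.

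All 39 members were expressed at both days. Their FPKM summed to 1485 and 883 at day 4 and to 1294 and 1497 at day 6. The median member stood at 21.5 and 6.67 FPKM in the day 4 libraries and at 27.8 and 32.9 FPKM in the day 6 libraries. Members below 1 FPKM occurred only in day 4 replicate 2, where there were 11, and 3 of these (Ttk, Prc1 and Ect2) were listed at 0. Ube2c had the highest level of the 39 in 3 libraries and Incenp in day 4 replicate 1. At day 6 the lowest was the kinase Bub1.

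No member passed in the comparison of day 6 with day 4 over all 4 libraries (limma on log2(FPKM + 1), Benjamini-Hochberg adjusted p under 0.05). Nor did any of the 11716 genes (percent called 0), while 1793 genes (15.3%) had an unadjusted limma p under 0.05. Ccnb2 and Cdca3 were the 2 members among them. An exact permutation test of 2 against 2 libraries cannot give a two-sided p below 0.333. Counted by overlap, both day 6 libraries were above both day 4 libraries for 16 of the 39 members, and 41.6% of all tested genes did the same, so the members' share was that of the background. Both were below for 1 member, Cdc20, where 11.5% of all genes were below. The other 22 members overlapped. The median log2 difference, day 6 minus day 4, was 1.01 over the members and 0.51 over all genes.

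These counts moved with the scaling. Median-of-ratios scaling lowered the median of all genes from 0.51 to 0.08 and that of the members from 1.01 to 0.49, and left 6 members higher and 4 lower without overlap (24.9% and 21.5% of all genes). Quantile normalization gave a median of 0.47 over the members and left 8 higher and 3 lower (23.1% and 24.99% of all), and a correction for transcript GC content 12 higher and 5 lower (28.3% and 26.8% of all). There were 11 settings that kept all 4 libraries and gave values per library, the one reported here included. Under all of them 6 members stayed higher without overlap (Ccnb2, Cdk1, Bub3, Kif20a, Kif2c and Cdca3), and Cdc20 stayed lower. A changed pseudocount or filter on low values cannot alter the order of a kept gene's libraries, so those settings add no support.

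**Figure D2:**
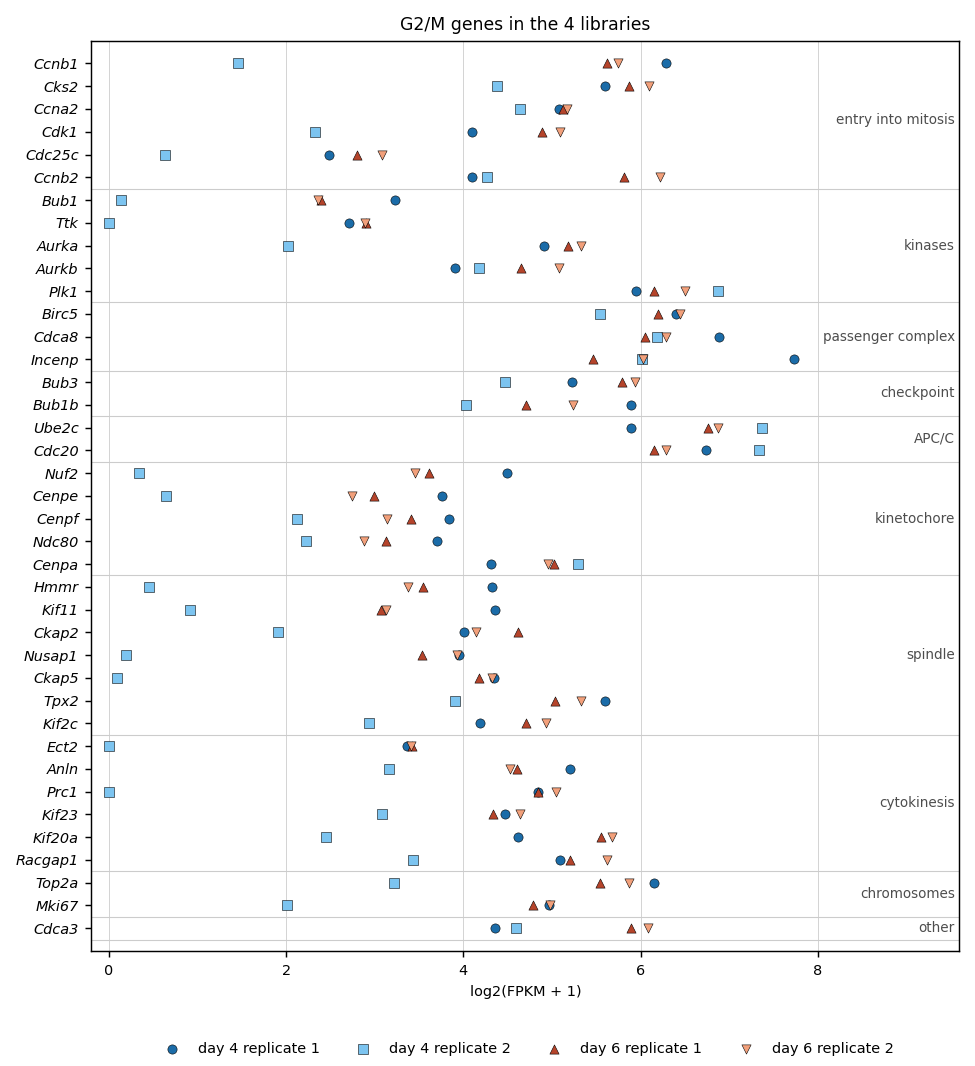
The log2(FPKM + 1) value of each of the 39 members in the 4 libraries, grouped by role. Circles are day 4 replicate 1, squares day 4 replicate 2, and triangles the day 6 replicates. For 30 members day 4 replicate 2 is the lowest of the 4, for Ube2c, Cdc20, Plk1 and Cenpa it is the highest, and the day 6 libraries lie close together throughout.

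Of 6 genes that start mitosis, 5 had both day 6 libraries above both day 4 libraries (41.6% of all genes), and none passed limma over the 4 libraries. Under median-of-ratios scaling only Ccnb2 and Cdk1 of these 6 stayed above, and Ccna2 was below. In all that follows, 4 values in a row are FPKM in day 4 replicate 1, day 4 replicate 2, day 6 replicate 1 and day 6 replicate 2. Ccnb2, cyclin B2 (mm10 chr9:70407689-70421554, minus strand), was at 16.1, 18.2, 55.0 and 73.7. Its day 4 libraries differed by 0.17 on the log2 scale, and both lay well under the day 6 pair. The log2 difference was 1.84 (SE 0.45, limma Benjamini-Hochberg adjusted p = 0.267), the fourth highest of the members.

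Ccnb1, cyclin B1 (mm10 chr13:100778739-100786486, minus strand), did not share this pattern with cyclin B2. It was at 76.9, 1.74, 48.1 and 52.5, so that both day 6 libraries lay between the day 4 libraries, which were 44.1 times apart. The deposited intervals of those day 4 values, 67.7 to 82.8 and 1.02 to 2.47, were far from touching. The ratio of Ccnb1 to Ccnb2 was therefore 4.78 and 0.0957 in the day 4 libraries and 0.874 and 0.712 in the day 6 libraries. The log2 difference of Ccnb1 was 1.81 (SE 1.68, limma adjusted p = 0.621).

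Cdk1, the mitotic kinase that both cyclins activate (mm10 chr10:69336635-69352912, minus strand), was at 16.1, 4.03, 28.5 and 33.1. Both day 6 libraries were above both day 4 libraries, with a log2 difference of 1.77 (SE 0.73, limma adjusted p = 0.351). Cks2, a small protein that helps CDK1 bind its substrates, was at 47.6, 19.8, 57.5 and 67.5. Ccna2, cyclin A2, which acts from S phase into early mitosis, was the steadiest of the module, at 32.7, 24.0, 33.9 and 35.03. Its day 6 libraries were above both day 4 libraries by little, with a log2 difference of 0.29 (SE 0.44), and the sign turned under median-of-ratios scaling (-0.23). Cdc25c, the phosphatase that activates CDK1, was the least abundant, at 4.60, 0.556, 5.98 and 7.48.

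The mitotic kinases split by gene. Aurka, the Aurora kinase of the spindle poles, was at 29.0, 3.06, 35.3 and 39.05. Aurkb, the Aurora kinase of the centromere and midzone, was at 14.0, 17.1, 24.2 and 32.9. Both were higher at day 6 without overlap, but only Aurka was strongly lower in day 4 replicate 2, and the ratio of Aurka to Aurkb was 2.07, 0.179, 1.46 and 1.19. The log2 difference was 1.79 for Aurka (SE 1.06) and 0.83 for Aurkb (SE 0.45, limma adjusted p = 0.434).

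Plk1 (mm10 chr7:122159437-122169875, plus strand) was at 61.0, 116, 70.3 and 90.0. It was highest in day 4 replicate 2, the day 6 libraries lay between the day 4 libraries, and the log2 difference was -0.08 (SE 0.55). Bub1, the kinase that recruits checkpoint proteins to kinetochores, was at 8.38, 0.0947, 4.26 and 4.13. The checkpoint kinase Ttk was at 5.55 in day 4 replicate 1, listed at 0 in day 4 replicate 2, and at 6.47 and 6.41 at day 6.

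Aurkb is the enzyme of the chromosomal passenger complex, and its 3 partners did not follow it. Incenp, the scaffold (mm10 chr19:9872297-9899533, minus strand), was at 212, 63.6, 43.2 and 64.4. Day 4 replicate 1 alone was high, the other 3 libraries lay between 43.2 and 64.4, and the log2 difference was -1.13 (SE 0.75, limma adjusted p = 0.498). Cdca8, borealin, was at 117, 71.8, 65.5 and 77.1, also highest in day 4 replicate 1, with a log2 difference of -0.36 (SE 0.50). Birc5, survivin, was at 83.8, 45.7, 72.6 and 86.5, with overlap and a log2 difference of 0.35 (SE 0.53). The scaffold and enzyme thus stood at 212 and 14.0 FPKM in day 4 replicate 1 and at 64.4 and 32.9 FPKM in day 6 replicate 2.

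In the spindle checkpoint, Bub3 (mm10 chr7:131560391-131571898, plus strand), an adaptor for both BUB kinases, was at 36.5, 21.1, 54.2 and 60.1. It was higher at day 6 without overlap, with a log2 difference of 1.01 (SE 0.50). Bub1b, which encodes the checkpoint protein BUBR1 (mm10 chr2:118598211-118641592, plus strand), was at 58.5, 15.3, 25.05 and 36.8. Its day 6 libraries lay between the day 4 libraries and the log2 difference was 0.01 (SE 0.78). The annotated gene Fgfr2 overlaps Bub3 over 11508 bases on the opposite strand. It was at 2.47, 1.81, 9.05 and 11.8, also higher at day 6 without overlap.

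The 2 APC/C genes were among the 4 members whose highest value was in day 4 replicate 2. Cdc20 (mm10 chr4:118432901-118437343, minus strand), which activates the complex and is the target of the checkpoint, was at 105, 161, 70.3 and 77.1. The day 6 pair lay under the whole day 4 pair, and the log2 difference was -0.81 (SE 0.49, limma adjusted p = 0.463). Ube2c (mm10 chr2:164769929-164772902, plus strand) was at 58.3, 165, 108 and 117, with both day 6 libraries between the day 4 libraries and a log2 difference of 0.19 (SE 0.67). For this transcript of 931 bases the deposited FPKM lay above its own deposited interval in 3 libraries, and for Cks2 in the day 6 libraries, so the levels of both are uncertain.

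All 5 kinetochore and centromere genes had both day 6 libraries between the day 4 libraries, as did 33.5% of all genes. Nuf2 was at 21.5, 0.264, 11.2 and 9.98. Ndc80, its partner in the same complex, was at 12.1, 3.69, 7.73 and 6.36. Their ratio, Ndc80 to Nuf2, was 0.561 in day 4 replicate 1, 13.9 in day 4 replicate 2, and 0.691 and 0.637 at day 6. The motor Cenpe was at 12.5, 0.568, 6.93 and 5.71, and the large kinetochore protein Cenpf at 13.3, 3.37, 9.59 and 7.77. Cenpa, the histone H3 variant of centromeres, ran the other way, at 18.9, 38.2, 31.6 and 30.0. The first 4 were highest in day 4 replicate 1 and Cenpa was highest in day 4 replicate 2.

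Among 7 spindle motors and microtubule-binding proteins, Kif2c, a microtubule-depolymerizing kinesin, and Ckap2 were higher at day 6 without overlap (2 of 7, against 41.6% of all genes). Kif2c was at 17.3, 6.67, 25.2 and 29.5, and Ckap2 at 15.1, 2.76, 23.5 and 16.7. Kif11, the motor that pushes spindle poles apart (mm10 chr19:37376403-37421859, plus strand), was at 19.5, 0.891, 7.41 and 7.72. Its day 6 libraries were close to each other and lay far from both day 4 libraries, and the log2 difference of 0.46 had an SE of 1.23. Ckap5, a microtubule polymerase, was at 19.4, 0.0616, 17.1 and 19.0, so 3 libraries were close and day 4 replicate 2 was near 0. Nusap1, a microtubule bundler, had the same shape at 14.4, 0.146, 10.6 and 14.2. Tpx2, which activates Aurora A and nucleates spindle microtubules, was at 47.4, 14.0, 31.7 and 39.3, and Hmmr, a spindle protein, at 19.0, 0.369, 10.7 and 9.40. All 7 were lowest in day 4 replicate 2, where they summed to 24.8 FPKM against 126 to 152 FPKM in the other libraries.

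Of 6 genes of the central spindle and cytokinesis, 4 were higher at day 6 without overlap (41.6% of all genes), and none passed limma over the 4 libraries. Only Kif20a of these 4 stayed higher without overlap under median-of-ratios or quantile scaling. Kif20a, the kinesin that carries the passenger complex to the midzone, was at 23.5, 4.48, 46.1 and 50.3. Both day 6 libraries were far above the higher of the day 4 libraries, and its log2 difference of 2.09 (SE 0.84, limma adjusted p = 0.347) was the second highest. Prc1, which bundles midzone microtubules (mm10 chr7:80294451-80316259, plus strand), was at 27.8 in day 4 replicate 1, listed at 0 in day 4 replicate 2, and at 27.8 and 31.9 at day 6. Its fitted log2 difference of 2.52 (SE 1.69) was the highest of the members, rests on that 0 and on the pseudocount, and was 0.10 without day 4 replicate 2.

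Racgap1, a subunit of the centralspindlin complex, was at 33.1, 9.81, 35.8 and 48.2, with a log2 difference of 1.15 (SE 0.71). Its partner motor Kif23 was at 21.2, 7.45, 19.2 and 23.9, with overlap. Ect2, which activates RhoA at the division plane, was at 9.31, listed at 0, and at 9.75 and 9.61. Anln, anillin, which organizes the contractile ring, was at 36.0, 7.93, 23.3 and 22.0, with the day 6 libraries between the day 4 libraries. All 6 were lowest in day 4 replicate 2.

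The pair of genes most used to score dividing cells did not separate the days. Mki67, the Ki-67 antigen that coats mitotic chromosomes (mm10 chr7:135689788-135716379, minus strand), was at 30.2, 3.03, 26.5 and 30.4, with a log2 difference of 1.39 (SE 1.08, limma adjusted p = 0.556). Top2a (mm10 chr11:98992947-99024189, minus strand) was at 70.1, 8.33, 45.5 and 57.4, with a log2 difference of 1.02 (SE 1.08). In both, day 4 replicate 2 was far below the other 3 libraries. Cdca3, which takes part in the destruction of the mitotic inhibitor WEE1 (mm10 chr6:124830176-124833701, plus strand), was at 19.5, 23.1, 58.6 and 67.0. Its day 4 libraries were close, the day 6 libraries were above both, and the log2 difference was 1.52 (SE 0.43, limma adjusted p = 0.288).

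The spread between the day 4 libraries exceeded the difference between the days for most members. The day 4 libraries were more than 1 log2 unit apart for 29 of 39 members (52.9% of all genes), and the day 6 libraries for 0 of 39 (1.76% of all). Day 4 replicate 2 was below replicate 1 for 32 members (56.4% of all genes) and was the lowest of the 4 libraries for 30 (49.3% of all). It was the highest of the 4 for 4 members (23.7% of all). The median difference, replicate 2 minus replicate 1, was -1.77 over the members (quartiles -3.03 and -0.81) and -0.26 over all genes. The largest gaps were those of Prc1 (-4.85), Ccnb1 (-4.83), Ckap5 (-4.26) and Nuf2 (-4.15). At day 6 the same difference ran from -0.47 to 0.57, with a median of 0.15.

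Transcript base composition moved with this gap. The members had a median transcript GC content of 46.6%, and all genes 51.2%. All 17 members under 46% GC were lower in day 4 replicate 2 by more than 1 log2 unit, as were 1700 of 2629 genes of that class. The median gap was -3.11 over these members and -1.48 over the class. The 9 members of 46 to 50% GC had a median gap of -1.69, against -0.95 over 2344 genes. The 13 members of 50% GC or more had a median gap of -0.76, against 0.42 over 6439 genes. The members that were higher in day 4 replicate 2 included Plk1 (55.98% GC), Cdc20 (55.6%), Aurkb (52.5%), Ube2c (51.4%) and Cdca3 (50.96%), but also Ccnb2 (49.3%) and Cenpa (47.3%). Of the 13 members of 50% GC or more, 8 were nevertheless lower in day 4 replicate 2, as were 2311 of 6439 genes of that class. Among the 8 were Aurka (51.4% GC, gap -2.88), Bub1b (50.4%, -1.87), Incenp (54.5%, -1.72) and Racgap1 (50.1%, -1.66).

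Across genes, the gap correlated with GC content at r = 0.70 (Spearman's rho 0.70) over the 39 members and at r = 0.60 (rho 0.63) over 11412 genes. These points share 2 libraries, are not independent replicates, and are given as a description. The small day 6 gap also correlated with GC content over the members, at r = 0.60 (rho 0.61), where all genes gave -0.04. With the log2 transcript length the gap correlated at -0.55 over the members and at -0.06 over all genes. After a loess correction for GC content in each library the day 4 gap of the members still correlated with GC content at r = 0.41 (all genes -0.0015), and the median gap was -0.81 over the members and -0.02 over all genes, and the median log2 difference between the days was 0.41 over the members and 0.03 over all genes. The part of base composition in the members' values was not tested beyond this.

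**Figure D3:**
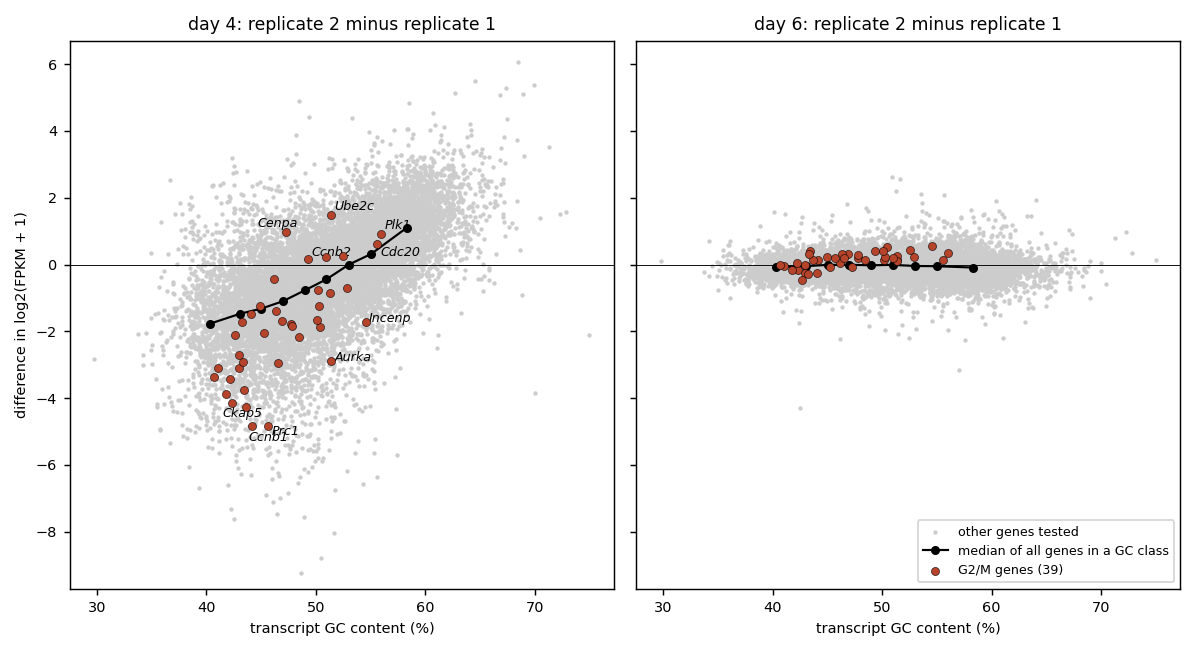
The difference in log2(FPKM + 1), replicate 2 minus replicate 1, against transcript GC content (%) at day 4 (left) and day 6 (right). Grey points are tested genes, black points the medians of all genes in 9 GC classes, red points the 39 members. At day 4 the members reach -4.85 and most lie under the black line, and at day 6 they lie between -0.47 and 0.57.

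The direction of the day comparison depended on which day 4 library was used. The following fits set 1 day 4 library against both day 6 libraries, assume that the lone library varies like the others, and share the day 6 libraries. Their p-values take the spread from the day 6 pair alone, so the wide gap between the day 4 libraries does not enter them. A pass in such a fit makes no allowance for variation between day 4 libraries. Against day 4 replicate 2 alone, 31 members passed as higher at day 6 and 2 as lower in limma (adjusted p under 0.05), where 49.9% of all genes were higher and 17% lower, and the median difference was 1.88 over the members and 0.66 over all genes. Against day 4 replicate 1 alone, 9 members passed as higher and 11 as lower, where 36.2% and 15.7% of all genes did, and the median difference was 0.01 over the members and 0.37 over all genes. By rank alone, both day 6 libraries were above day 4 replicate 2 for 33 members (65% of all genes) and below it for 4 (28.7%). They were above day 4 replicate 1 for 19 (59.9%) and below it for 17 (32%). Both day 6 libraries lay between the day 4 libraries for 17 members, where 33.5% of all genes did.

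Single members show how far this reached. Ccnb1 had a log2 difference of 4.22 against day 4 replicate 2 (limma adjusted p = 0.000166) and -0.60 against replicate 1 (adjusted p = 0.0351). Kif11 had 2.18 (limma adjusted p = 0.000996) and -1.26 (adjusted p = 0.00575). Ube2c turned the other way, with -0.55 (limma adjusted p = 0.0406) against replicate 2 and 0.93 (adjusted p = 0.00944) against replicate 1. Each of these passed in both fits with opposite signs.

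Others had 1 sign against either library. Ccnb2 had 1.75 (limma adjusted p = 0.00241) against day 4 replicate 2 and 1.92 (adjusted p = 0.00328) against replicate 1. Cdca3 had 1.40 (limma adjusted p = 0.00243) and 1.63 (adjusted p = 0.00299). Kif20a had 3.17 (limma adjusted p = 0.000284) and 1.00 (adjusted p = 0.008). Cdk1 had 2.66 (limma adjusted p = 0.000486) and 0.89 (adjusted p = 0.0147). Cdc20 was negative in both, at -1.11 (limma adjusted p = 0.00426) and -0.51, which did not pass (adjusted p = 0.0566). Incenp was at -0.27 (limma adjusted p = 0.430) and -1.99 (adjusted p = 0.00423).

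**Figure D4:**
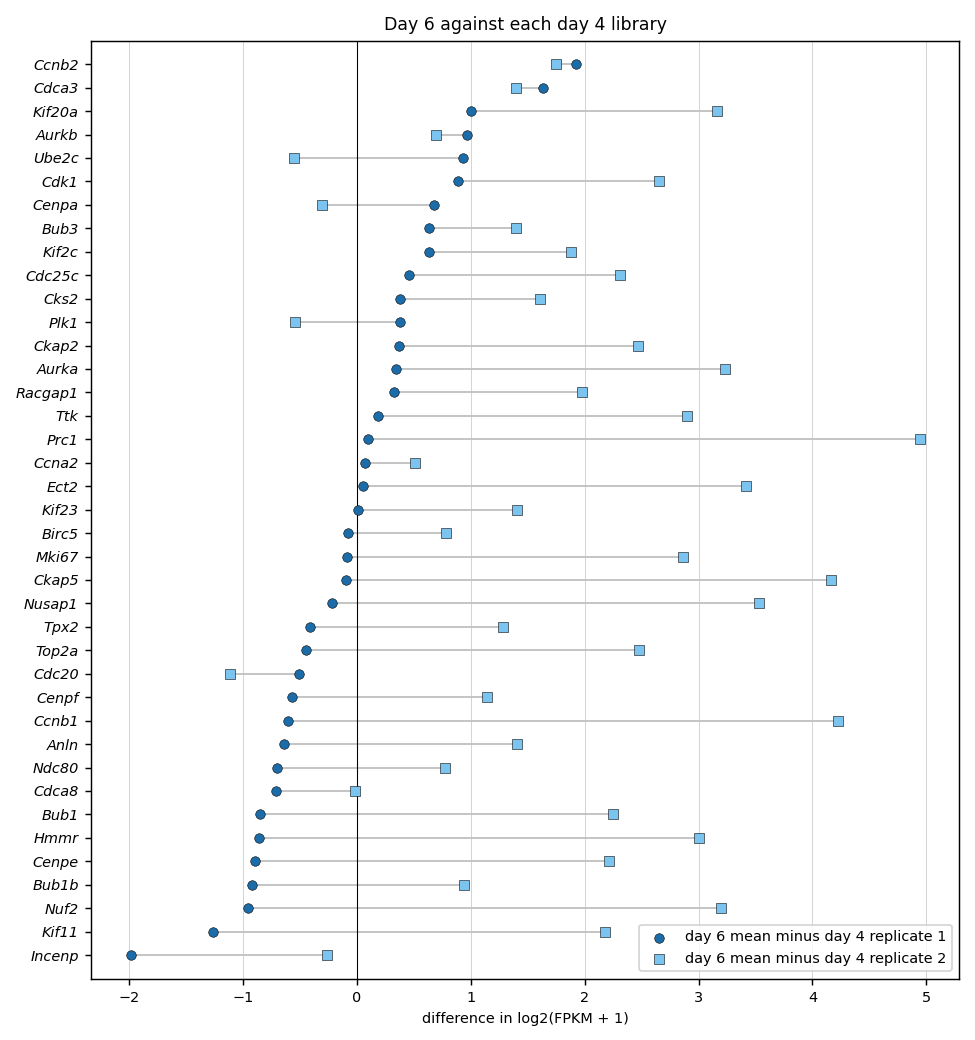
For each member, the difference in log2(FPKM + 1) between the day 6 mean and day 4 replicate 1 (circles) or replicate 2 (squares), ordered by the circles. Ccnb2 and Cdca3 have both marks close together at 1.40 or above, whereas Ccnb1 runs from -0.60 to 4.22 and Prc1 from 0.10 to 4.94.

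Several members had more than 1 transcript row, and the shares between rows changed. For Birc5, the 972 base transcript NM_009689 was at 72.8, 45.2, 70.2 and 84.7 FPKM and the 3416 base transcript NM_001012273 at 10.99, 0.487, 2.42 and 1.84 FPKM, so the long form was highest in day 4 replicate 1. For Prc1, the row NM_145150 held 90.5% of the gene's FPKM in day 4 replicate 1 and 66.1% and 67.3% at day 6. For Ect2, the row NM_007900 held 72.9% in day 4 replicate 1 and at most 11.3% at day 6. Such splits between near-identical rows are estimates without replicate support at day 4, since both genes were listed at 0 in replicate 2. Sums over rows were used for all comparisons.

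Some members share sequence or position with other genes. Ccnb1 has 3 annotated processed pseudogenes with 97.3 to 99.2% identity over about 52% of its transcript (Ccnb1-ps, Gm12856 and Gm8416), and Cks2 has 3 over 240 of 692 bases (Gm15452, Gm19945 and Gm12891). None has a row of its own in the tables, so reads from them could have been given to the parent gene. Kif20a overlaps Cdc23, Prc1 overlaps Rccd1 and Bub3 overlaps Fgfr2, each on the opposite strand. Ccna2 overlaps Exosc9 over 863 bases and Cdc20 overlaps Elovl1 over 53 bases, also on the opposite strand. No source used here says whether the quantification read the strand, so the values of these members are uncertain to that extent.

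The other genes of mitosis, from 7 lists that leave the members out, were examined in the same way. Of 124 tested genes, 44 (35.5%) had a day 6 pair above the whole day 4 pair and 7 (5.65%) a day 6 pair below it, where 41.6% and 11.5% of all genes did. The median log2 difference was 0.49 (0.51 over all genes), and the median day 4 gap was -1.12 (members -1.77, all genes -0.26). None passed in limma over 4 libraries, and 5 had an unadjusted p under 0.05. Against day 4 replicate 2 alone 81 (65.3%) passed as higher and 15 (12.1%) as lower, where 49.9% and 17% of all genes did. Against replicate 1 alone 19 (15.3%) and 27 (21.8%) did, where 36.2% and 15.7% of all genes did. The difference from the members was not tested.

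In each list below, the shares higher and lower without overlap are to be read against 41.6% and 11.5% of all genes. Among 35 other kinetochore and checkpoint genes, 10 (28.6%) were higher and 4 (11.4%) lower without overlap (median difference 0.31). Spc24, a subunit of the NDC80 complex beside Ndc80 and Nuf2, was at 35.3, 36.8, 13.8 and 15.9, with day 4 libraries that were close and a log2 difference of -1.23 (SE 0.42, limma adjusted p = 0.310). Its day 6 pair lay under its whole day 4 pair. Cenpn, a centromere protein, was at 5.46, listed at 0, and at 15.7 and 16.3. Mad2l1bp, which helps to silence the checkpoint, was at 4.73, 4.10, 13.4 and 9.40.

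Among 17 APC/C subunits and inhibitors, 8 (47.1%) were higher and 1 (5.88%) lower (median 0.59). Anapc2, the cullin subunit of the complex, was at 15.5, 11.1, 53.2 and 59.0, with a log2 difference of 2.01 (SE 0.45, limma adjusted p = 0.267), so this core subunit was higher at day 6 while the activator Cdc20 was lower. The subunit Cdc16 was at 17.3, 11.9, 33.0 and 38.8, and Anapc5 at 51.3, 24.4, 70.6 and 76.0. Among 19 condensin, cohesin and separase genes, 7 (36.8%) were higher and 0 lower (median 0.55), and the median day 4 gap of -2.44 was below that of the members. There, Pttg1, which encodes securin, was at 27.4, 1.72, 39.7 and 41.4, and the condensin subunits Ncaph and Ncapd2 were at 11.3, 4.37, 14.7 and 17.3 and at 59.1, 23.0, 61.1 and 84.8.

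Among 14 regulators of CDK1 and PLK1, 4 (28.6%) were higher and 0 lower (median 0.31). Cks1b, the paralogue of Cks2, was at 95.4, 27.3, 162 and 171, and Melk and Ccnf were at 17.9, 0.287, 20.6 and 25.8 and at 31.8, 40.0, 54.6 and 56.9. Among 13 transcriptional regulators of G2/M genes, 4 (30.8%) were higher and 0 lower (median 0.30). Lin37, a subunit of the MuvB core, was at 6.04, 5.45, 14.4 and 15.8, higher at day 6 with day 4 libraries that were close. Rbbp4 and Lin54, subunits of the same core, the second of which contacts the CHR, were at 32.0, 7.54, 39.2 and 43.6 and at 3.72, 0.357, 4.46 and 4.47.

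Among 8 other mitotic kinesins, 4 (50%) were higher and 1 (12.5%) lower (median 0.64). Kif22, a chromosome arm motor, was at 25.01, 10.5, 31.4 and 38.6. Kif24 and Kif14 were low, at 0.618 to 3.34 and 0.382 to 5.22 FPKM over the 4 libraries. Among 18 centrosome and spindle pole genes, 7 (38.9%) were higher and 1 (5.56%) lower (median 0.63). Dlgap5, a spindle assembly protein, was at 23.6, 2.89, 32.1 and 34.6, Spag5 at 7.26, 4.32, 10.7 and 13.8, and Cep192 at 5.10, listed at 0, and at 6.82 and 7.32. None of these differences passed the limma test over 4 libraries.

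The genes of DNA replication and the G1/S step, the phase before, served for comparison. Of 30 genes, 8 (26.7%) had a day 6 pair above the whole day 4 pair and 3 (10%) a day 6 pair below it, where 41.6% and 11.5% of all genes did. The median log2 difference was 0.32, and the median day 4 gap was -1.20 (G2/M members 1.01 and -1.77). Mcm6, a subunit of the replicative helicase, was at 48.5, 17.8, 80.4 and 101.7, Gins4 at 29.6, 29.1, 49.9 and 57.4, and Cdc6 at 10.9, listed at 0, and at 14.0 and 15.8. Against day 4 replicate 2 alone 18 (60%) passed as higher and 3 (10%) as lower in limma, where 49.9% and 17% of all genes did. Against replicate 1 alone 5 (16.7%) and 6 (20%) did, where 36.2% and 15.7% of all genes did. The difference between the lists was not tested. The low values of day 4 replicate 2 were not confined to cell cycle genes: 12 reference genes expressed in most cells had a median day 4 gap of -3.23, and Gusb was at 4.51, 1.38, 8.89 and 10.7.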

How the data were processed

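RNA from CJ9 cells was extracted with TRIzol, selected with mRNA-binding Dynabeads and made into libraries using the TruSeq kit for stranded mRNA, per the labels' protocols. CASAVA, TopHat2 2.0.11 and the build mm10 are named in the submitters' processing notes. The sources used here name neither the quantifier nor its annotation, use of strand or handling of reads with several matches. The deposited tables, 1 per library, hold 35656 transcript rows each with FPKM and its interval bounds, per the file headers. The deposited coverage column (signal) was used only to describe depth. Start coordinates were counted from 0 in the tables and are printed counted from 1.

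FPKM was summed per symbol and genes averaging 1 FPKM or more were tested on log2(FPKM + 1), a scale that understates changes of low genes. The test was limma 3.58.1 in R 4.3.3 (trend, two-sided, Benjamini-Hochberg over 11716 genes, adjusted p threshold 0.05) with day as the only term, tested on simulated data first. Symbols, transcript GC content, overlaps and copies came from the reference annotation of mm10, and promoters from RefSeq (GRCm38.p6). No promoter entry was matched for Ccna2, Aurkb, Cdc25c, Kif20a, Tpx2 and Incenp.

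Alternatives were pseudocounts of 0.1 and 5 FPKM, no filter, a mean of at least 5 FPKM, TPM, median-of-ratios and quantile scaling, GC correction (loess, span 0.5), the highest row of each symbol, setting aside rows of other status, a replicate block, and leaving out each library. All 39 members are given. Values in every library were due for 19 preset members and for the 4 highest, the 4 lowest and the 4 with the largest day 4 gap, and up to 3 genes per other list were named by smallest p. The 39 members and all lists were chosen with earlier results of these data known.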

Additional observations from a re-analysis of the deposited data

How the results depend on the processing

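With 2 libraries a day, 1 of them standing apart, most counts moved with the libraries used. A replicate block gave 67 passing genes in place of 0 and still no member. No label ties the replicate numbers to a shared culture, and the gaps between replicates 2 and 1 at day 4 and day 6 correlated at r = -0.09 over 11716 genes. Leaving out 1 library gave 0 to 7837 passing genes, 0 to 33 passing members and a median member difference of 0.0096 to 1.88, in place of 0, 0 and 1.01. The highest counts and both ends of the median came from leaving out a day 4 library. Members higher without overlap numbered 6 under median-of-ratios and 8 under quantile scaling, and 16 to 33 with 1 library left out, in place of 16. The share of all genes that were higher was 24.9%, 23.1% and 45.1 to 65.0% in these settings, in place of 41.6%. Members lower without overlap numbered 4, 3 and 5 under median-of-ratios scaling, quantile scaling and GC correction, 5 under the replicate block with GC correction, and 1 to 17 with 1 library left out, in place of 1. Of 80 such alternatives, 63 kept a count within 1.5 times of that reported or a median within 0.78, the spread between replicates. The other 17 did not. Some could not differ: a pseudocount cannot change an overlap count, and the replicate block leaves overlaps and log2 differences as they were. The limit of 0.78 includes the spread of the day 4 pair. Within that wide limit the member median of 1.01 was 0.49 under median-of-ratios scaling, 0.47 under quantile scaling and 0.41 under GC correction. In 12 settings other than leaving out a library, 27 of 39 members kept their sign and 12 did not. Under median-of-ratios scaling the log2 differences turned to -0.13 (Anln), -0.18 (Birc5), -0.51 (Bub1b), -0.23 (Ccna2), -0.34 (Cenpa), -0.18 (Cenpf), -0.43 (Ndc80), -0.088 (Tpx2) and -0.35 (Ube2c). Under quantile scaling they turned to -0.088 (Anln), -0.15 (Bub1), -0.33 (Bub1b), -0.012 (Ccna2), -0.078 (Cenpa), -0.12 (Cenpe), -0.39 (Cenpf), -0.29 (Kif11) and -0.65 (Ndc80). Under GC correction, with or without the replicate block, they turned to -0.22 (Anln), -0.30 (Birc5), -0.66 (Bub1b), -0.34 (Ccna2), -0.47 (Cenpa), -0.21 (Cenpf), -0.50 (Ndc80), -0.22 (Tpx2) and -0.46 (Ube2c). A pseudocount of 5 turned Bub1b (-0.021) and Ndc80 (-0.017), TPM turned Bub1b (-0.031), and the highest row turned Tpx2 (-0.74). With 1 library left out, 19 members changed sign: Anln (-0.64 to 1.41), Birc5 (-0.079 to 0.78), Bub1 (-0.85 to 2.25), Bub1b (-0.92 to 0.94), Ccnb1 (-0.60 to 4.22), Cenpa (-0.30 to 0.68), Cenpe (-0.89 to 2.22), Cenpf (-0.57 to 1.14), Ckap5 (-0.10 to 4.16), Hmmr (-0.86 to 3.01), Kif11 (-1.26 to 2.18), Mki67 (-0.085 to 2.87), Ndc80 (-0.70 to 0.78), Nuf2 (-0.96 to 3.19), Nusap1 (-0.22 to 3.53), Plk1 (-0.54 to 0.38), Top2a (-0.45 to 2.48), Tpx2 (-0.41 to 1.28) and Ube2c (-0.55 to 0.93). The cause was not tested. A member listed at 0 in day 4 replicate 2 may have been present below detection. Day 4 replicate 1 had a similar depth by interval widths, about 3.72 M fragments against 3.61 M. By the median ratio of coverage to FPKM it was lower than replicate 2, at 0.698 against 0.929. Of genes at 5 FPKM or more in each of the other libraries, 4 of 5188 were at 0 in replicate 1 and 202 of 6146 in replicate 2. Setting aside rows of other status kept all 39 members. Why these members were listed at 0 was not tested.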
